A study of Mus musculus with 5 samples.

Results

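Expression of 10 genes of fatty acid uptake, lipid handling and beta-oxidation was followed across soleus muscles of 5 reloaded mice. The genes were chosen by name from a 223-probe expression array, on which each had 1 probe, 10 of the 223 in all. Cd36, Fabp3, Fabp4 and Lpl formed the uptake and binding group, and Cpt1b, Acadl, Acadm and Hadh the mitochondrial group. Lipe and Dgat1, an enzyme of lipid breakdown and an enzyme of lipid synthesis, stood outside both groups. Soleus is a slow, postural calf muscle. All 5 C57Bl/6 mice, marked wt in their titles, belonged to the same group, at day 7 of reloading, and they are called mice 1, 3, 4, 5 and 6 after their titles. The labels do not state age, sex or the length of any earlier unloading. No muscle of another condition was analysed here, so the comparison that the design allows is between genes within each mouse and between mice of this group. With no control group, no difference between conditions was tested.

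Fatty acids reach a muscle fibre in stages. Lipoprotein lipase, encoded by Lpl, releases them from circulating triglyceride at the capillary wall. Cd36 helps them across the membranes of endothelium and fibre, and small binding proteins carry them inside the cell: Fabp3 is the form of heart and skeletal muscle, and Fabp4 that of fat cells and capillary endothelium. Cpt1b, the muscle form of carnitine palmitoyltransferase, admits long-chain fatty acids to the mitochondrion. Acadl and Acadm, the long- and medium-chain acyl-CoA dehydrogenases, carry out the first step of beta-oxidation, and Hadh, a 3-hydroxyacyl-CoA dehydrogenase, a later step. Dgat1 makes triglyceride for storage, and Lipe, hormone-sensitive lipase, takes part in its breakdown. Slow muscles such as soleus are rich in mitochondria and burn much fat.

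The authors deposited linear intensities in arbitrary units, with background correction and scaling not given in the sources used here. Array totals ran from 70.8 to 137, and between 20 and 59 of the 223 probes were at or below 0 on each array. The lowest value of an array lay between -0.0168 and -0.0041, which gives a rough size for its background noise. A probe's level depends on the probe, so levels of different genes are not compared. What can be compared is the ratio of 2 genes on the same array, followed from mouse to mouse. A factor that multiplies a whole array, such as more RNA or a brighter scan, cancels in such a ratio. An added background does not cancel. The markers of slow and oxidative fibres, Myh7 and Mb, were above 0 in all 5 mice, as were the fast chains Myh1, Myh2 and Myh4.

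Of the 10 genes, 9 gave a signal above 0 in every mouse, and in 8 of them it also exceeded the size of the array's lowest value in every mouse. Lipe, the tenth, passed neither level. Its deposited values were -0.0077, -0.0017, -0.0012, -0.0048 and -0.0051 in mice 1, 3, 4, 5 and 6. A value at or below 0 bounds the signal only by the background. Dgat1 was dim, at 0.0083, 0.0142, 0.0091, 0.0080 and 0.0149 in the same order. It exceeded the size of the lowest value in 3 of the 5 mice, and was highest in mice 3 and 6.

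The promoters of Hadh, Acadm and Fabp3 are shown. Hadh and Acadm were a pair near a fixed proportion, and Fabp3 varied most of the 9 measured genes. The log2 ratio of Hadh to Acadm had an SD over mice of 0.23, beside a median of 0.75 over all probe pairs. Other pairs were closer, such as Acadm with Cpt1b at 0.12. Each promoter shown is the 250 bases before the gene's start, from RefSeq on GRCm38.p6, written 5′ to 3′ on the gene's strand. Capitals mark matches, on either strand, to any of 3 short motifs. The first was AGGTCA, the core of many nuclear receptor binding sites. The second was the common GC box motif GGGCGG, and the third was the TATA box motif TATAAA.
Hadh, chr3:131272102-131272351, minus strand: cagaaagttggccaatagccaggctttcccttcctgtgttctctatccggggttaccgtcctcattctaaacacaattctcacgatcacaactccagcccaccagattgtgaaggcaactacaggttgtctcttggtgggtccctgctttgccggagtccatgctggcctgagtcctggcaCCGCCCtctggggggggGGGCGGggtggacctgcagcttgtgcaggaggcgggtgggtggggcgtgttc
Acadm, chr3:153944644-153944893, minus strand: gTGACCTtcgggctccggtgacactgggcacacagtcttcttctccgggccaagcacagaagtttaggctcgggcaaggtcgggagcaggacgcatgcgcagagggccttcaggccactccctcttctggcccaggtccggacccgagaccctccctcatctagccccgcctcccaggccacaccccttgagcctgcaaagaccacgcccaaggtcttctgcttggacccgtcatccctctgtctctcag
Fabp3, chr4:130308488-130308737, plus strand: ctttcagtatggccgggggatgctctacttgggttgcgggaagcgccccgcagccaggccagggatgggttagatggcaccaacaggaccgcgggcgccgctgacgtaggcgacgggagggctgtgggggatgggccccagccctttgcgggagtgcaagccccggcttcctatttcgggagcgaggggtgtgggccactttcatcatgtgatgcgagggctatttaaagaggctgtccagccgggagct
Windows were found for 6 of the 10 genes, 7 windows in all, since Lipe had 2. AGGTCA occurred in 2 of the 7, those of Acadm and Cd36, against 14.0% of all 32851 windows of that length. GGGCGG occurred in 4 of the 7, those of Cd36, Acadl, Hadh and 1 window of Lipe, against 32.7% of all. TATAAA occurred in 0 of the 7, against 12.4% of all. No matches overlapped in the windows shown. The Fabp3 window held none of these 3 words. A match describes letters in the window, not a site in use.

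Of the 9 measured genes, Fabp3 differed most between mice. Its deposited values were 0.459, 0.0838, 0.226, 0.316 and 0.185 in mice 1, 3, 4, 5 and 6. Mouse 1 was thus 5.47 times mouse 3, and the other mice lay between them. Quantile-normalised, Fabp3 was at 0.247 ± 0.141 (SD, n = 5), a CV (SD as a percentage of the mean) of 57.0%. The CV was 55.8% as deposited, 58.7% with each array scaled to its median and 49.7% scaled to its total.

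Cd36 took a different order of mice. It was at 0.196, 0.182, 0.322, 0.261 and 0.355 in mice 1, 3, 4, 5 and 6, so that mouse 1, the highest for Fabp3, was the second lowest for Cd36. Its quantile-normalised level was 0.260 ± 0.0809 (SD, n = 5). Lpl was at 0.134, 0.175, 0.182, 0.110 and 0.157, highest in mouse 4 and lowest in mouse 5. Fabp4 was at 0.228, 0.131, 0.138, 0.134 and 0.205. Mice 1 and 6 were high for Fabp4 and the other three lay close together. Which of Fabp4 and Lpl varied more depended on the scaling. Their CVs were 15.3% and 38.5% when quantile-normalised, 17.7% and 30.7% with median scaling and 9.74% and 40.9% scaled to the total, but 27.5% and 19.7% as deposited.

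Of the mitochondrial genes, 3 had a narrower deposited range than any uptake and binding gene. Hadh was at 0.283, 0.202, 0.253, 0.219 and 0.282 in mice 1, 3, 4, 5 and 6, a highest-to-lowest ratio of 1.40. Cpt1b was at 0.0506, 0.0417, 0.0581, 0.0403 and 0.0630, a ratio of 1.56. Acadm was at 0.0249, 0.0241, 0.0341, 0.0232 and 0.0315, a ratio of 1.47. As deposited, mice 3 and 5 were the lowest pair in these 3 genes. Quantile-normalised, mouse 6 was the lowest in each, at 0.196 for Hadh, 0.0420 for Cpt1b and 0.0188 for Acadm. The order of mice thus turned with the scaling, and so did the ranking of spread. The CV of Fabp4 was 27.5% as deposited and 15.3% quantile-normalised. In the same order it was 17.8% and 31.7% for Acadm and 19.6% and 21.6% for Cpt1b. Hadh, at 14.8% and 13.0%, stayed below Fabp4 in both.

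Acadl had a wider range. It was at 0.131, 0.0709, 0.0916, 0.0687 and 0.0923 in mice 1, 3, 4, 5 and 6, a ratio of 1.91, against 1.66 for Lpl, 1.74 for Fabp4 and 1.95 for Cd36. Mouse 1 stood above the other mice, which spanned 0.0687 to 0.0923. Quantile-normalised levels were 0.251 ± 0.0326 for Hadh, 0.0507 ± 0.0110 for Cpt1b, 0.0274 ± 0.00869 for Acadm and 0.0933 ± 0.0219 for Acadl (SD, n = 5).

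**Figure D1:**
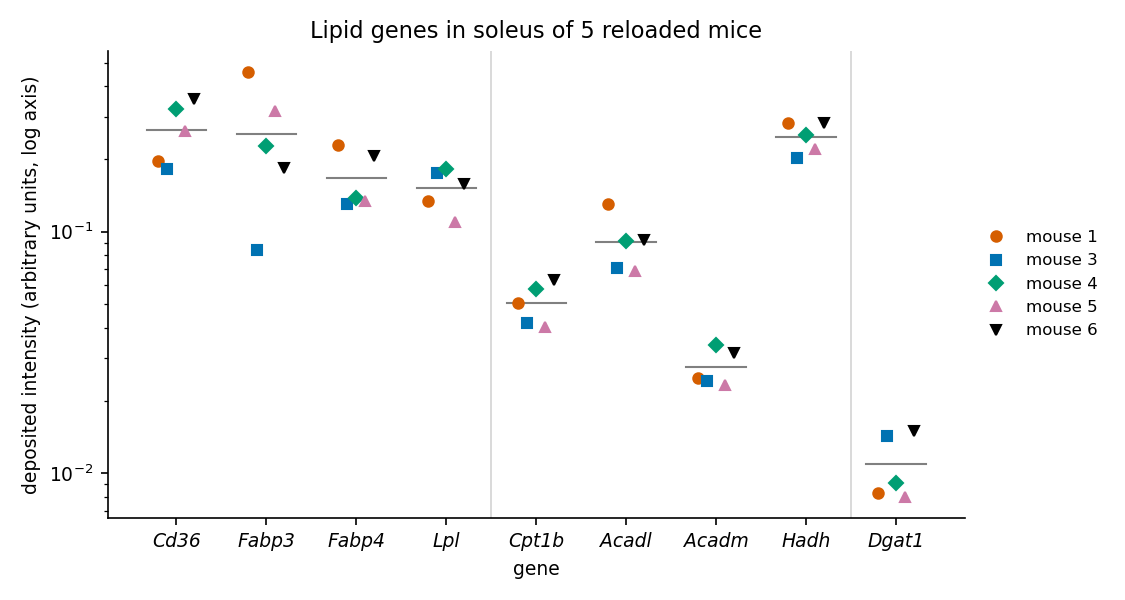
Deposited intensity (arbitrary units, log axis) of the 9 genes above 0 in all mice, with 1 point for each mouse and a grey line at the mean of the 5 mice; Lipe, at or below 0 in every mouse, cannot be drawn on a log axis. Fabp3 spans 0.0838 to 0.459, while Hadh spans 0.202 to 0.283; heights of different genes depend on the probe and are not comparable.

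As a group, the mitochondrial genes had a median CV of 22.5% and the uptake and binding genes one of 34.8%, beside 33.1% over all 146 probes tested. The order of the groups was the same as deposited (18.7% and 28.2%, beside 45.2% over all probes), with median scaling (22.8% and 31.1%) and with total scaling (28.3% and 41.4%). The spread of each gene was set against that of probes with a like signal in limma, which compares its log2 variance with a trend in mean signal. None of the 9 genes was called wider or narrower after Benjamini-Hochberg adjustment over all probes, where percent called was 0 in each direction. The smallest adjusted p among the 9 was 0.89 for wider and 0.87 for narrower (limma). Fabp3 had an SD 2.61 times the trend (limma, unadjusted p = 0.040, adjusted p = 0.89, between 0.52 and 0.91 over the alternatives). It was the only gene of the 9 that fell below an unadjusted 0.05 for wider, where 4.79% of all probes did, and 0 of the 9 did for narrower, where 5.48% did. A single gene of 9 is near that background.

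Within arrays, the 4 mitochondrial genes stayed closer to fixed proportions than the uptake and binding genes did. For each pair of genes the log2 ratio was taken on every array, and its SD over the 5 mice measured how far the pair left a fixed proportion. The median SD was 0.22 over the 6 mitochondrial pairs (0.12 to 0.39) and 0.68 over the 6 uptake and binding pairs (0.49 to 1.14). Over all 10731 pairs of measured probes it was 0.75, with a lower quartile of 0.50. Over pairs of the 69 probes in the same range of signal as the 8 genes, a background chosen after seeing the data, it was 0.62. All 6 mitochondrial pairs lay below the median of all pairs, and 3 of the 6 uptake and binding pairs did.

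The ranges of the mitochondrial and the uptake pairs did not overlap with all 5 mice. They overlapped without mouse 3, where the highest mitochondrial pair was at 0.44 and the lowest uptake pair at 0.33. Pairs that share a gene are not independent, so the difference between the groups has no test here, and with 1 array for each mouse the SD mixes measurement noise with differences between animals. The medians of the groups stayed apart when any mouse was left out: 0.11 to 0.25 for mitochondrial pairs and 0.58 to 0.74 for uptake and binding pairs. The lowest mitochondrial value, 0.11, was that without mouse 1.

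Acadm and Cpt1b were the closest pair. Their linear ratio was 0.492, 0.578, 0.587, 0.576 and 0.500 in mice 1, 3, 4, 5 and 6, which is 1.19-fold from lowest to highest mouse. Hadh over Cpt1b ran from 4.35 in mouse 4 to 5.60 in mouse 1, a 1.29-fold range. Of these ratios only the differences between mice have a meaning, since the probes differ. The pair with the widest range among the mitochondrial genes joined the 2 acyl-CoA dehydrogenases: Acadl over Acadm was 5.26 in mouse 1 and 2.69 to 2.96 in the other 4 mice. The SD of this pair was 0.39.

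Fabp3 over Lpl had the widest range of the uptake and binding pairs. The linear ratio was 3.42, 0.479, 1.24, 2.88 and 1.17 in mice 1, 3, 4, 5 and 6, a 7.13-fold range. Fabp3 over Cd36 ran from 0.460 in mouse 3 to 2.34 in mouse 1, 5.08-fold. Mice 1 and 5 were the 2 highest in both ratios and mouse 3 the lowest. The 7 pairs of Fabp3 with the other uptake and mitochondrial genes had a median SD of 0.93, and 0 of the 7 lay below the median of all probe pairs. They ran from 0.76 to 1.14, where all probe pairs had a median of 0.75 and an upper quartile of 1.14. Such spread was thus common among pairs of probes.

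With all 5 mice, Fabp3 was not the whole of the difference between the groups. Without it, the 3 pairs among Cd36, Fabp4 and Lpl had SDs from 0.49 to 0.55, still above the highest mitochondrial pair at 0.39. That did not hold without mouse 3, where Cd36 with Lpl was at 0.33 and the highest mitochondrial pair at 0.44. Fabp4 over Lpl was 1.70 in mouse 1 and 0.749 in mouse 3, a 2.27-fold range. Pairs across the groups were in part as close as mitochondrial pairs: Fabp4 with Acadl had an SD of 0.21, Fabp4 with Hadh 0.22 and Lpl with Acadm 0.24. Over all 16 such pairs the median was 0.38. Dgat1, near the background, had a median of 0.54 over its 8 pairs.

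**Figure D2:**
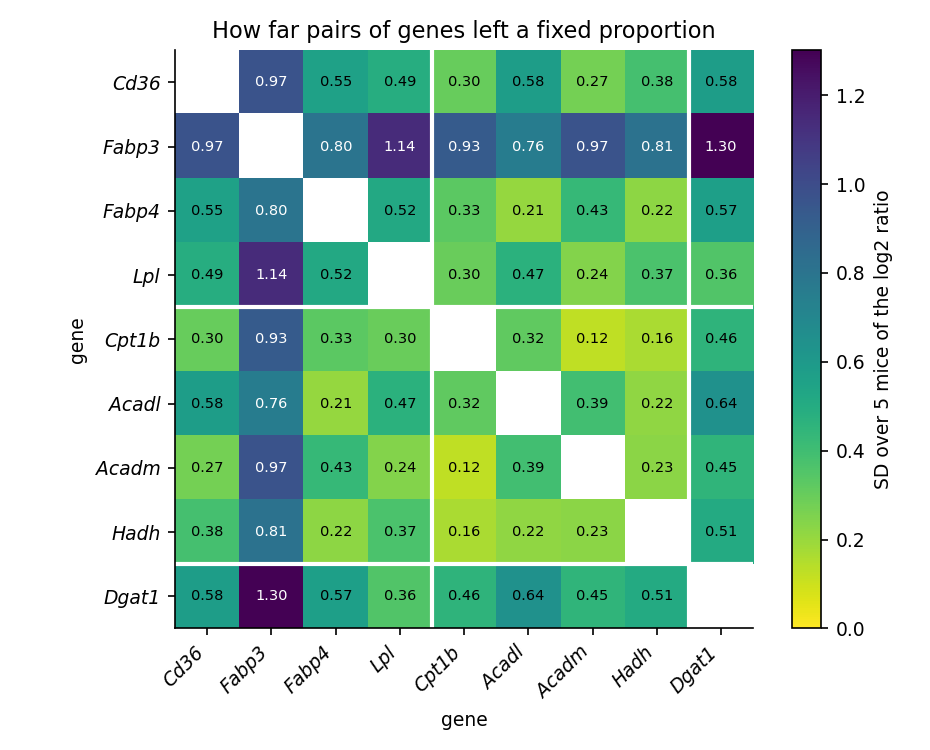
SD over 5 mice of the within-array log2 ratio for every pair of the 9 measured genes (colour and number), with white lines between the uptake and binding genes, the mitochondrial genes and Dgat1. The block of Cpt1b, Acadl, Acadm and Hadh holds values of 0.12 to 0.39, and the row of Fabp3 holds values of 0.76 to 1.30.

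Set against the mitochondrial genes of the same array, the uptake and binding genes moved in different directions in the same mouse. In mouse 1 the log2 ratio to the mean of the 4 mitochondrial genes deviated from its own mean over mice by 0.90 for Fabp3 and 0.32 for Fabp4, but by -0.54 for Cd36 and -0.32 for Lpl. In mouse 3 Fabp3 was at -1.13 and Cd36 at -0.22, while Lpl was at 0.49. In mouse 5 Fabp3 was at 0.79 and Cd36 at 0.30, with Lpl at -0.18 and Fabp4 at -0.01. The SD over mice of this ratio was 0.86 for Fabp3, 0.37 for Cd36, 0.32 for Lpl and 0.27 for Fabp4. Against the mean of the other 3 mitochondrial genes, it was 0.11 for Hadh, 0.14 for Cpt1b, 0.23 for Acadm and 0.30 for Acadl. No mouse had all 4 uptake and binding genes on the same side of their means: 2, 1, 2, 2 and 2 of the 4 lay above in mice 1, 3, 4, 5 and 6.

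**Figure D3:**
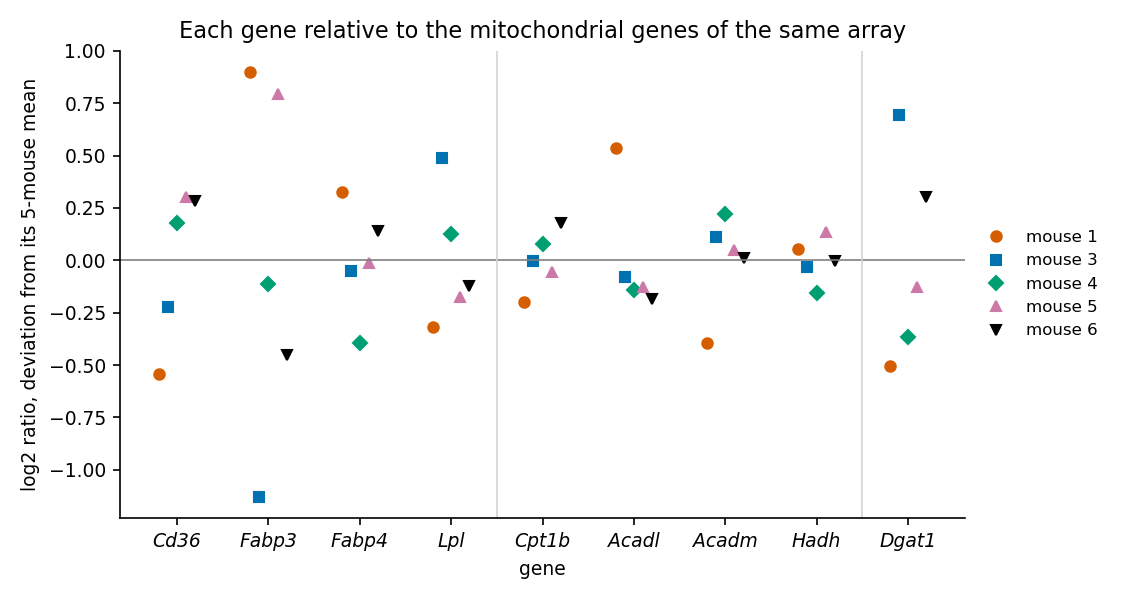
Deviation of each gene's within-array log2 ratio from its mean over 5 mice, with 1 point for each mouse; the reference is the mean of the 4 mitochondrial genes or, for these genes themselves, of the other 3. Fabp3 runs from -1.13 in mouse 3 to 0.90 in mouse 1, and Hadh from -0.16 to 0.14.

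Averaged over the 4 uptake and binding genes, these moves in different directions partly cancelled. The ratio of the groups therefore varied less between mice than that of any single uptake and binding gene, which does not show that the groups were alike. The log2 ratio of the group means was 1.47, 1.15, 1.33, 1.61 and 1.34 in mice 1, 3, 4, 5 and 6, or 1.38 ± 0.17 (SD, n = 5). Its highest and lowest mice, 5 and 3, were 1.37-fold apart. Without Fabp3 the order changed: mouse 1 became the lowest, at -0.18 from the mean of the 5 mice, mouse 3 moved from -0.23 to 0.07, and the SD was 0.11. Without Lpl the SD was 0.32. The ratio of the groups thus rested on which genes were averaged. No test against a reference value is possible, because the level of the ratio depends on the probes.

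Seen as levels, both groups moved with the scaling of the arrays. Quantile-normalised, all 8 genes were below their own means in mouse 6 and all 8 above in mouse 4. The mean deviation in mouse 6 was -0.53 for uptake and binding genes and -0.40 for mitochondrial genes (log2). As deposited it was 0.16 and 0.20, on an array where the median probe lay 0.59 above its mean. In mouse 4 both groups were above their means under all 4 scalings, from 0.11 to 0.57 for uptake and binding genes and from 0.16 to 0.63 for mitochondrial genes. The median of all measured probes in mouse 4 ran from -0.17 to 0.30 under the same scalings, and both groups lay above it under each. The distance was 0.34 for uptake and binding genes and 0.32 for mitochondrial genes when quantile-normalised. Under the other scalings, which differ only by a factor for each array, it was 0.27 and 0.32.

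**Figure D4:**
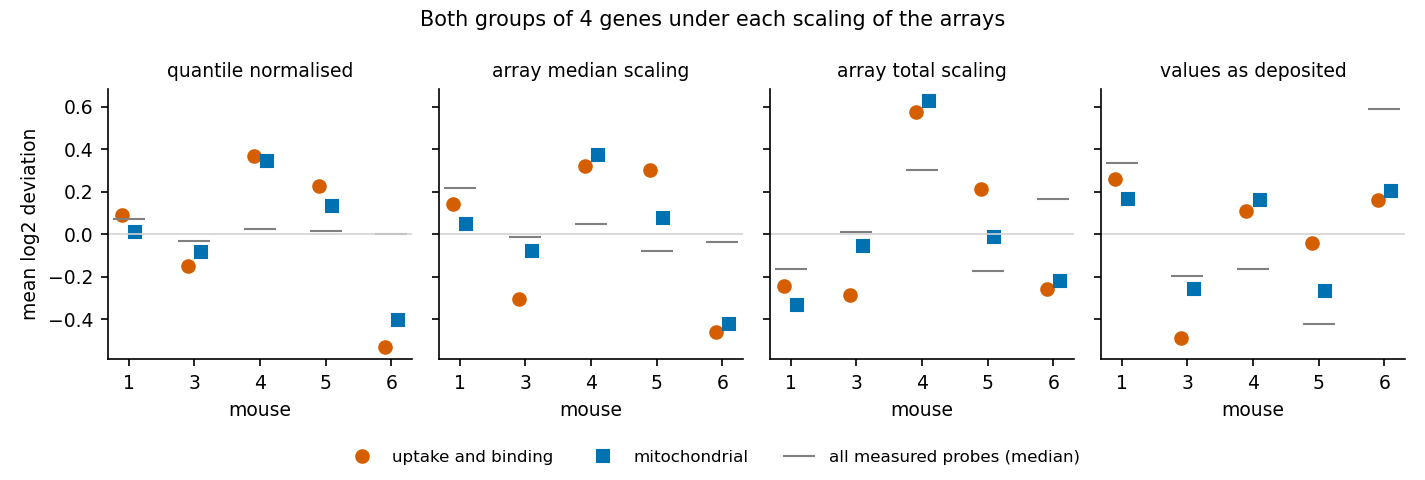
Mean log2 deviation of the 4 uptake and binding genes and of the 4 mitochondrial genes from their 5-mouse means in each mouse, under 4 scalings of the arrays, with the median deviation of all measured probes as a grey dash. In mouse 4 both groups lie above the dash in each panel, and in mouse 6 below it, while the deviation of mouse 6 itself is negative or positive depending on the scaling.

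Other mitochondrial energy genes shifted together relative to the beta-oxidation genes. The list held 12 genes, of which 6 were on the array and above 0 in all mice: the cytochrome oxidase subunits Cox4i1, Cox5b, Cox6a2 and Cox8a, the citrate cycle enzyme Mdh2 and Pdha1 of the pyruvate dehydrogenase complex. The 15 pairs among these 6 had a median SD of 0.15 (0.083 to 0.30). The 24 pairs that joined them to Cpt1b, Acadl, Acadm or Hadh had a median of 0.34 (0.15 to 0.49), against 0.22 within the beta-oxidation genes. With quantile-normalised values the medians were 0.28 among the 6, 0.39 for the joining pairs and 0.29 within the beta-oxidation genes, so both sets were then about as close. Relative to the 4 beta-oxidation genes, their mean deviated by 0.28, -0.15, -0.40, 0.02 and 0.25 in mice 1, 3, 4, 5 and 6. All 6 genes were above their own means in mice 1 and 6 and none was in mice 3 and 4, with 4 of the 6 above in mouse 5. The 6 ratios share their denominator and are not independent. Array totals were 137, 84.7, 70.8, 81.7 and 131 in mice 1, 3, 4, 5 and 6. The mean of the 6 ratios and the array total were both highest in mice 1 and 6 and lowest in mouse 4. As deposited, the 6 genes summed to 4.41 to 8.40 and the 4 beta-oxidation genes to 0.339 to 0.490. Whether ratios of bright to dim probes shift with the array total was not tested. Cox8a ran widest, from -0.50 in mouse 4 to 0.53 in mouse 6. The directions of mice 1, 3, 4 and 6 were the same in quantile-normalised values, with either added background and when any other mouse was left out. Mouse 3 was however at only -0.03 in quantile-normalised values. Mouse 5 was then at -0.17, and its sign changed with the setting.

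**Figure D5:**
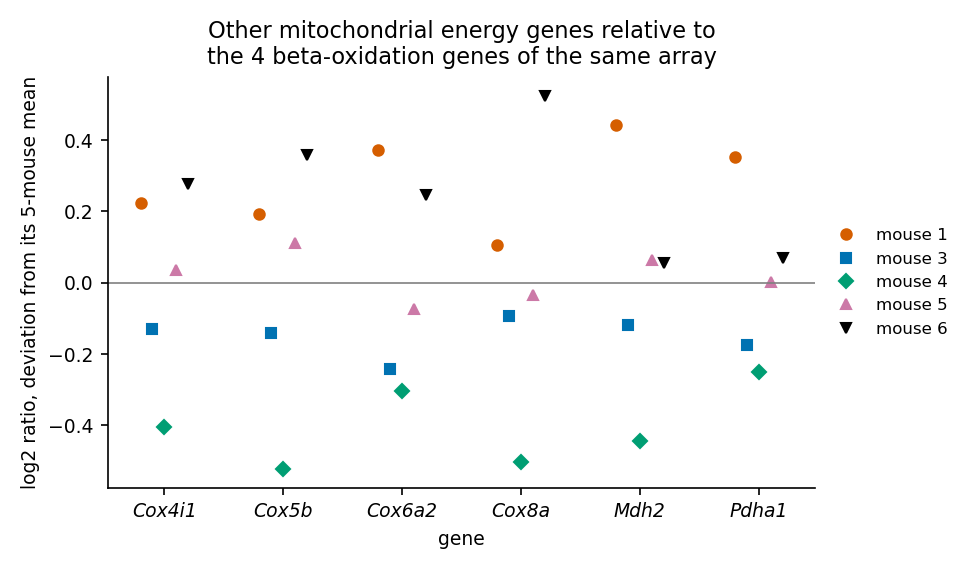
Deviation of the within-array log2 ratio of 6 other mitochondrial energy genes to the mean of Cpt1b, Acadl, Acadm and Hadh from its mean over mice, with 1 point for each mouse. Mouse 4 is the lowest for all 6 genes, from -0.52 to -0.25, and mice 1 and 6 lie above 0 for each.

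Of 41 further genes of lipid and fatty acid metabolism on the list, 4 were on the array, and 3 were above 0 in all mice. None of the 3 was called wider or narrower than the trend after adjustment (limma). Vldlr, a receptor for triglyceride-rich lipoproteins, was at 0.0698, 0.0779, 0.0719, 0.0573 and 0.107 in mice 1, 3, 4, 5 and 6. Ucp3, a mitochondrial carrier of muscle, was at 0.0894, 0.0510, 0.0534, 0.0580 and 0.0585, highest in mouse 1. The SDs of their log2 ratios to the 4 mitochondrial genes were 0.29 and 0.31. Ppara, a nuclear receptor that activates genes of fatty acid oxidation, was at 0.0083, 0.0213, 0.0345, 0.0149 and 0.0402, with an SD of 0.90. In mouse 1 it was below the size of that array's lowest value, 0.0168, so its place there is uncertain. Pparg was above 0 in 4 mice.

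By the smallest SD of the within-array ratio among 131 other named probes, the genes nearest to the mean of the uptake and binding genes were Mb (myoglobin, 0.20), Myh2 (a fast myosin heavy chain, 0.20) and Pdha1 (0.21). Those nearest to the mean of the mitochondrial genes were Lamb2 (a laminin chain, 0.22), Pdgfrb (a growth factor receptor, 0.22) and Pdha1 (0.24). The median SD over the ranked probes was 0.63 and 0.56. The nearest genes depended on the setting: with quantile-normalised values 1 of the first 3 and 0 of the second 3 remained. Without mouse 6, 0 of the first 3 and 1 of the second 3 did.

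Cd36, Fabp4 and Lpl are also expressed in capillary endothelium and fat cells, and in whole muscle a change in the number of such cells cannot be told apart from a change in RNA per cell. Of 9 endothelial markers, 7 were on the array, all above 0 in the 5 mice. Their summed deposited level ran from 0.373 in mouse 3 to 0.879 in mouse 6. Relative to the 4 mitochondrial genes, the mean of the 7 markers was at -0.64, 0.18, 0.12, -0.25 and 0.59 in mice 1, 3, 4, 5 and 6. That mean took in values below the size of the array's lowest value. In mouse 1 Flt1, at 0.003, and Tek, at 0.0019, lay below 0.0168 and deviated by -2.98 and -1.39. In mouse 5 Tek, at 0.0009, lay below 0.0103 and deviated by -2.03. In mouse 6 Tek, at 0.0107, lay just below 0.0109 and deviated by 1.07. Nos3 was below the size of the array's lowest value in every mouse. Cd36 was at -0.54, -0.22, 0.18, 0.30 and 0.28, on the same side as the mean of the markers in mice 1, 4 and 6. It was on the other side in mice 3 and 5. Pecam1, Cdh5, Kdr and Cd34 exceeded the size of the lowest value in every mouse. They were at -0.56, -0.14, -0.23 and -0.14 in mouse 3, and at -0.20, -0.14, -0.35 and -0.23 in mouse 4. In mouse 5 they were at 0.68, 0.22, 0.11 and -0.04. Cd36 was thus on their side in mouse 3, on the other side in mouse 4, and with all but Cd34 in mouse 5. In mice 1 and 6 all lay on its side. Fabp4 was at 0.32, -0.05, -0.40, -0.01 and 0.14 in mice 1, 3, 4, 5 and 6. It was on the side of these 4 markers in mice 3, 4 and 6 and on the other in mouse 1. Lpl was at -0.32, 0.49, 0.13, -0.18 and -0.12, on their side in mouse 1 and on the other in mice 3, 4 and 6. In mouse 5 Fabp4 and Lpl were below 0, on the side of Cd34 only. All these ratios share their denominator and are not independent. The markers differed among themselves: 1, 3, 2, 4 and 6 of the 7 lay above their own means in mice 1, 3, 4, 5 and 6. The part of endothelium in these values was not tested. Of 7 fat cell markers, 3 were on the array, 2 of which are among the 10 genes here: Lipe was at or below 0 in all mice, Pparg was between -0.0012 and 0.0312, and Fabp4 was measured throughout. Their summed level ran from 0.134 to 0.219. Of 7 immune cell markers, the 2 on the array, Il1b and Il6, were at or below 0 in all mice.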

How the data were processed

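Total RNA (3 microgram per array, isolated from muscle sections, per the labels) of 5 soleus samples was measured on a 223-probe array. The authors deposited linear intensity values; background correction, scaling and software were not given in the sources used here, and the number of arrays limits the precision. Whether each sample is a separate animal rests on the labels. Probes were named through the platform annotation, with symbols updated to the GRCm38.p6 gene table: 205 of 223 probes had 1 symbol, 0 had several, 18 had none, and 204 matched the table. Probes above 0 on all 5 arrays (147) were kept as measured. Because column medians differed by over 10% (0.013 to 0.0338), levels were quantile normalised on the log2 scale. Within-array ratios used the deposited values. Spread was tested with limma 3.58.1 and statmod 1.5.0 in R 4.3.3 (fitFDistRobustly, F tail probability, Benjamini-Hochberg at 0.05) over 146 probes. It left out 1 probe made constant by quantile normalisation. The test was checked on simulated data in which a few probes had an SD 5 times the trend. Its ability to call an SD of 2.61 times the trend, that of Fabp3, was not checked. Ratios were described, with no test.

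All 10 genes are named; other genes come from lists or from the 3 smallest ratio SDs to each group mean. Members and lists were chosen with earlier results of these data known. Alternatives were other scalings, added backgrounds, other filters, a variance model without the trend, and leaving out each gene or mouse. Python 3.11.15, numpy 2.4.6, pandas 2.3.3 and matplotlib 3.10.9 were used.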

Additional observations from a re-analysis of the deposited data

Results flagged for a closer look

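In 20 sets of values, 1 for each mouse, the highest and lowest mouse were compared with the rest (the deposited values and within-array ratios of 9 genes, and the ratio of the groups with and without Fabp3), and 1 mouse stood apart; chance gives about 1 in 20 for independent sets, and these share genes. The ratio of Acadl to the mean of the other 3 mitochondrial genes was highest in mouse 1, at 0.53 above its mean over mice on the log2 scale against -0.18 to -0.08 in the other 4 mice, a gap of 0.852 of the range. The deposited Acadl value of mouse 1, 0.131, was well above the size of that array's lowest value, 0.0168, whereas Acadm, at 0.0249, was close to it.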

How the results depend on the processing

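No paired analysis was possible because there is only 1 group. The limits are the 5 arrays, the absence of repeat arrays and of a control, an unknown background correction, and dim probes (Dgat1, Acadm and Ppara). The SD of the ratio of the groups, 0.17, was 0.096 with quantile-normalised values, 0.24 without Cd36, 0.32 without Lpl, and 0.13 to 0.19 when each mouse was left out. The deviation of mouse 1 in that ratio was 0.30 without Cd36 and -0.18 without Fabp3; that of mouse 3 was 0.072 without Fabp3 and -0.47 without Lpl; that of mouse 5 was 0.037 without Fabp3. Mice 4 and 6 lay within 0.06 of the mean and their sign changed with the setting. The median SD of mitochondrial pairs was 0.32 without Hadh and 0.11 to 0.25 with each mouse left out; that of uptake and binding pairs was 0.97 without Fabp4; that of pairs of other mitochondrial energy genes was 0.28 with quantile-normalised values. As deposited, the mean deviation of mouse 6 was 0.16 for uptake and binding genes and 0.20 for mitochondrial genes, and that of mouse 5 was -0.27 for mitochondrial genes. Scaled to the total, mitochondrial genes were at -0.34 in mouse 1 and 0.63 in mouse 4. As deposited, 2 probes, neither among the 10 genes, were called wider by limma; 0 were in the other settings run. Apart from the use of fewer genes or mice, the cause was not tested. Background choices added after seeing the data gave medians of 0.62 (like signal) and 0.67 (probe identifiers that share their number) in place of 0.75.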
